A study of Mus musculus with 10 samples.

Results

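Expression of 32 genes of fatty acid oxidation, ketone body metabolism and the response to PPAR alpha was followed, out of 45707 genes in the table, by RNA sequencing of jejunum from Vil-Cre mice (n = 5) and Vil-Cre:NDI1 mice (n = 5). The 32 genes were chosen by name, and all of them were found and passed the filter on low values, as 14301 genes did (10 or more normalized counts in 5 or more mice). Both groups carry Cre under the villin promoter, which acts in intestinal epithelial cells, and Vil-Cre:NDI1 mice also carry a Cre-activated transgene for NDI1, the single-subunit NADH dehydrogenase of yeast. NDI1 passes electrons from NADH to ubiquinone without the proton-pumping complex I, so the comparison asks whether an added route for NADH changes the transcripts of a pathway that makes NADH. All 10 animals were vehicle-treated, and the study used male littermates and gives an age of 8 to 12 weeks. For the RNA libraries it describes an overnight fast of 16 to 18 h and a water gavage, with the jejunum taken 1 h later and flushed of its contents. Whole jejunum was taken, so muscle, immune and fat cells are in the tissue beside the epithelium, and fewer cells of a type cannot be told apart from less RNA per cell.

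Fatty acids enter mitochondria as carnitine esters and are shortened by a cycle of dehydrogenation, hydration, a second dehydrogenation and thiolysis, which yields acetyl-CoA, NADH and electrons for the electron transfer flavoprotein. Very long and branched chains start in peroxisomes. PPAR alpha is a nuclear receptor that binds fatty acids and induces many of these enzymes during fasting, and in the small intestine it is active in enterocytes that absorb dietary fat.

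The main result is that none of the 32 genes differed between the genotypes by the test. The lowest and the highest of the 10 mice differed by 2.02- to 9.75-fold in 12 of the 32 genes, where 46.4% of all genes tested differed by over 2-fold. Without the pair of mice with the highest Fabp6, a marker of the ileum, it was 7 of the 32, beside 40.2% of all genes. Carnitine palmitoyltransferase, the acyl-CoA dehydrogenases, the electron transfer flavoprotein and the trifunctional protein were even across mice. The PPAR alpha target genes Pdk4, Angptl4, Cd36 and Acaa1b were uneven, and the same mice were low for several of them. Other genes grouped with PPAR alpha and its targets were less so. The within-genotype spread of Plin2, Vnn1 and Acot2 was above that of 35.5%, 51.0% and 44.6% of all genes tested.

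Values are reads assigned to a gene divided by 1 factor per library, called normalized counts, and libraries held 10145705 to 12371530 reads on genes. NDI1 had 0 or 1 reads in the Vil-Cre libraries and 1002 to 2659 reads in the Vil-Cre:NDI1 libraries, as the labels say. Markers of other cell types varied between mice of the same genotype. The summed count of 9 adipocyte markers was 1247 to 4072 in Vil-Cre and 1766 to 3155 in Vil-Cre:NDI1 mice, and the summed count of 9 hepatocyte markers 32.4 to 1233 and 39.2 to 83.3. The 12 enterocyte markers summed to between 384308 and 645268 in Vil-Cre and between 570072 and 740832 in Vil-Cre:NDI1 mice, and none was at 0. Pnlip and Cpa1, which mark the exocrine pancreas, were at 0 in all 10 libraries. Of the hepatocyte markers C9 was at 0 in 8 libraries, Fgg in 4, and Fga, Fgb and Ahsg in 2 each. The hepatocyte sum was highest in Vil-Cre 1, 5 and 3, at 1233, 885 and 466. No marker gene of any of the 11 cell type lists passed the genotype test, in which NDI1 was the only gene called. Just 4 of the 9 hepatocyte and 1 of the 6 pancreatic markers passed the filter, so most of these were not tested. Markers of position along the gut also varied. Fabp6, a bile acid binding protein of the ileum, was 36.4, 325, 5.01, 0 and 1477 in Vil-Cre mice 1 to 5 and 4.90, 0.911, 0.968, 772 and 201 in Vil-Cre:NDI1 mice 1 to 5.

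Because PPAR alpha binds the repeat AGGTCANAGGTCA, in which N is any base, the start-site windows of the members were searched for it on both strands. RefSeq windows of 300 bases on GRCm38.p6, from 250 before to 50 after a start, were at hand for 26 of the 32 genes, in 27 windows. The repeat was in 0 of these 27 windows and in 0.0396% of 32851 windows over all genes. The looser form AGGNCANAGGNCA, which includes every match of the first, was in 0 of the 27 and in 0.381% of all. At shares this low, 0 of 27 windows is the usual outcome for any genes, so it says nothing particular about the members. The single unit AGGTCA was in 6 of the 27 (22.2%), against 16.3% of all windows, in Acadm, Acadvl, Cd36, Cpt1a, Echs1 and Plin2. These are letters in a short window, and binding was not measured. To show where the unit lies, 4 of these genes were taken, 2 that oxidize fat (Cpt1a and Acadm) and 2 that take it up or store it (Cd36 and Plin2). The 250 bases before the RefSeq start are shown for each of them. Each is written 5′ to 3′ on the strand of its gene, with capitals for the unit, which reads TGACCT because it lies on the other strand in all 4 genes.
Cpt1a, chr19:3323051-3323300, plus strand: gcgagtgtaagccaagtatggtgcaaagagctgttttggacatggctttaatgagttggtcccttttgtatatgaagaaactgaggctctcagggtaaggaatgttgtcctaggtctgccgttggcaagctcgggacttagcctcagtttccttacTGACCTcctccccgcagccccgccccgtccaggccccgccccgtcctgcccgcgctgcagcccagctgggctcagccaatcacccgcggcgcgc
Acadm, chr3:153944644-153944893, minus strand: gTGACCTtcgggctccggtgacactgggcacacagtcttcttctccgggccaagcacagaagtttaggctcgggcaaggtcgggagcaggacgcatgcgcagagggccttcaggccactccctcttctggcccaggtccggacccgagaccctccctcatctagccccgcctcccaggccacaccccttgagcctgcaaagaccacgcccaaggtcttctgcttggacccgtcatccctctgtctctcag
Cd36, chr5:17835897-17836146, minus strand: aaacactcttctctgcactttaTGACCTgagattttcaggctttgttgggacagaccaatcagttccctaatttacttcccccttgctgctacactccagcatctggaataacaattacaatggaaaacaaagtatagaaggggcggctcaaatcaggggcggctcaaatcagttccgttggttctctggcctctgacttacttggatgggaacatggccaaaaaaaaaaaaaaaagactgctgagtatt
Plin2, chr4:86670060-86670309, minus strand: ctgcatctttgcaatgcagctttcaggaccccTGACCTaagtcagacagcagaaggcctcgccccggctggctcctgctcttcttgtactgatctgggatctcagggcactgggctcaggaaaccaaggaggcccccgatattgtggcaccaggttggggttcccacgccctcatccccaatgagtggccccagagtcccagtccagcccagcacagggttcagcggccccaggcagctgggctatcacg
The unit began 94 bases before the RefSeq start in Cpt1a, 249 in Acadm, 228 in Cd36 and 218 in Plin2. For Cpt1a and Cd36 that start lies inside the annotated gene (chr19:3322334-3385733 and chr5:17781690-17888801). Their stretches are therefore not upstream of the whole gene. Hadha and Hadhb, the subunits of the trifunctional protein, lie head to head on chromosome 5, with starts 273 bases apart and 228 bases common to both windows.

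The carnitine shuttle was even between genotypes. Cpt1a, carnitine palmitoyltransferase 1 of the outer mitochondrial membrane and the gate to mitochondrial oxidation, had normalized counts of 1549, 1181, 1230.3, 1393 and 1684 in Vil-Cre mice 1 to 5 and of 1285, 1282, 1409.8, 1649 and 1224 in Vil-Cre:NDI1 mice 1 to 5. The highest values were in Vil-Cre 5 and Vil-Cre:NDI1 4, and the groups overlapped. The log2 fold change of Vil-Cre:NDI1 against Vil-Cre was -0.03 ± 0.12 (SE, n = 5 mice per genotype, 95% confidence interval -0.29 to 0.22). Cpt2, its partner in the inner membrane, was 1150.3, 1219, 1387, 1167 and 1173 in Vil-Cre and 1236, 1132, 1251, 1271 and 1227 in Vil-Cre:NDI1 mice. Its means were 1219 ± 97.0 and 1223 ± 53.6 (SD, n = 5), and its spread was the narrowest of the 32 genes.

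**Figure D1:**
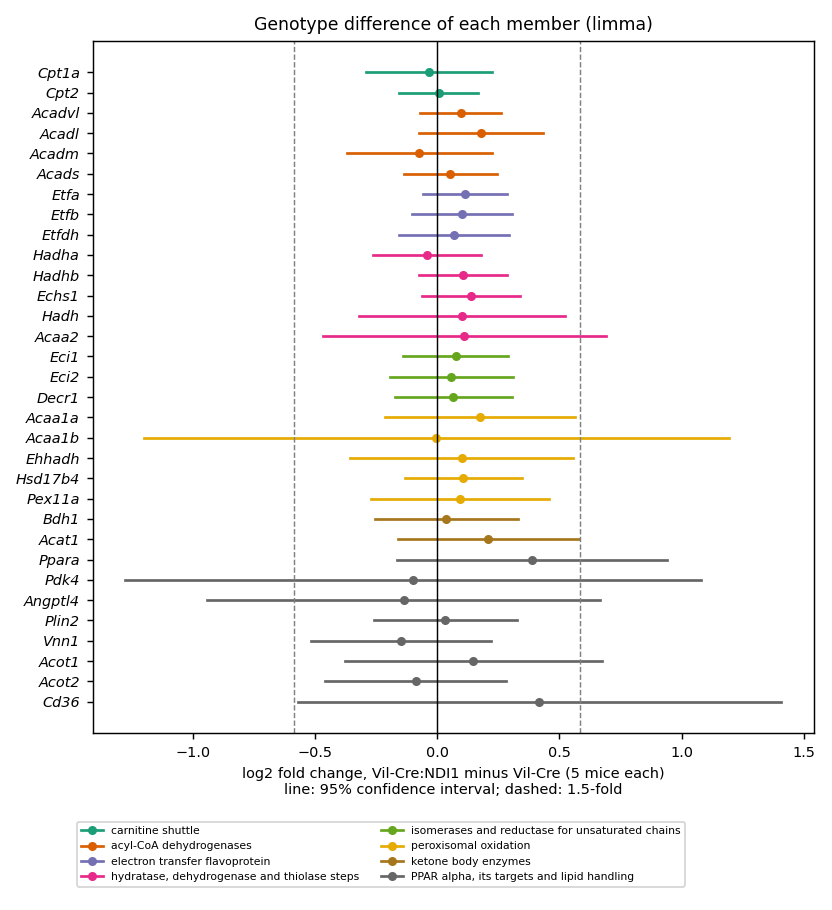
Log2 fold change of each of the 32 genes (x axis, Vil-Cre:NDI1 minus Vil-Cre, 5 mice each) with its 95% confidence interval from limma; genes are in rows, coloured by role, and dashed lines mark 1.5-fold. All 32 intervals include 0, 25 lie within 1.5-fold, and Acaa1b, Pdk4 and Cd36 have the widest.

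Over all 32 genes limma called 0 at an adjusted p under 0.05, with adjusted p-values from 0.9976 to 0.9999, and 0.00699% of all 14301 genes were called, which is NDI1 itself. DESeq2 and edgeR on the reads also called 0 of the 32, against 0.183% of 16976 genes by DESeq2. Without Vil-Cre 3 and Vil-Cre 4, DESeq2 again called 0 of the 32, against 1.77% of 15601 genes. An unadjusted p under 0.05 was then found for 7 of the 32 by DESeq2, against 12% of all genes, and for 3 of the 32 by edgeR, against 8.74%. With limma on all 10 mice, an unadjusted p under 0.05 was found for 0 of the 32 and for 4.24% of all genes. The genotypes overlapped in every one of the 32 genes, and 0.699% of all genes had groups that did not overlap. The smallest exact permutation p was 0.103, for Etfa, where 252 assignments of the mice allow a p as small as 0.00794. In 25 of the 32 genes the whole 95% interval was inside 1.5-fold up or down, against 53.5% of all genes, so changes larger than that lie outside the interval for those 25. The exceptions were Acaa2, Acaa1b, Ppara, Pdk4, Angptl4, Acot1 and Cd36. For Acaa1b, Pdk4 and Cd36 the interval reached beyond 2-fold, and a change of that size was not detectable in these genes with this spread. The signs leaned one way, with 24 of the 32 estimates above 0 and a median log2 fold change of 0.09, beside 51.2% above 0 and a median of 0.01 over all genes tested. That lean rested in part on 1 mouse, since 18 of 32 were above 0 without Vil-Cre 5, beside 51.0% of all genes. With libraries scaled to equal totals 19 of 32 were above 0, beside 36.2% of all genes, whose median log2 fold change was then -0.06.

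The acyl-CoA dehydrogenases open each round of the cycle, each on its own range of chain lengths. Acadvl, for very long chains, had normalized counts of 2493 to 2844 in Vil-Cre and 2587 to 3169 in Vil-Cre:NDI1 mice, with a log2 fold change of 0.10 (95% interval -0.07 to 0.26). Acads, for short chains, was 633 ± 28.5 and 659 ± 67.6 (SD, n = 5). Acadm, for medium chains, ran from 1614 in Vil-Cre 5 to 2555 in Vil-Cre 3, and its log2 fold change was -0.07 (-0.37 to 0.22). Acadl, for long chains, was 928, 1109.7, 986, 925 and 1206 in Vil-Cre and 959.6, 1182, 1121, 1439.6 and 1154 in Vil-Cre:NDI1 mice. Its estimate of 0.18 ± 0.12 (SE) was the largest of the 4 dehydrogenases, with an exact permutation p of 0.190 (two-sided), and the groups overlapped. Like Cpt1a, it was high in Vil-Cre 5 and Vil-Cre:NDI1 4. For Acadvl, 42.9% of the exon bases lie opposite exons of Dvl2, and since the strand used in counting is not given in the sources used here, some of its reads may belong to that gene.

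The electron transfer flavoprotein accepts electrons from these dehydrogenases, and Etfdh hands them to ubiquinone, the same carrier that NDI1 reduces. Etfa had normalized counts of 1932, 2012, 2221, 2095 and 1720.0 in Vil-Cre and 2182, 2074, 2264, 2144 and 2112 in Vil-Cre:NDI1 mice. It was lowest in Vil-Cre 5, and the Vil-Cre:NDI1 mice lay within the upper part of the Vil-Cre range apart from mouse 3, which was above it. Its log2 fold change was 0.11 ± 0.08 (SE). Etfb was 1317 ± 129.7 and 1414 ± 146 (SD, n = 5), and 65.2% of the 100-base windows of its transcript also occur in Gm45233, an overlapping gene model on the same strand, so its count is uncertain. Etfdh was 1187, 1172, 1369, 1439 and 1069 in Vil-Cre and 1413, 1335, 1441, 1133 and 1203 in Vil-Cre:NDI1 mice, with a log2 fold change of 0.07 (95% interval -0.16 to 0.29). No member of this group moved by the test, and all 3 intervals lay within 1.5-fold.

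The hydration, second dehydrogenation and thiolysis steps split into even and uneven genes. Hadha and Hadhb form the trifunctional protein, which carries out these steps on long chains. Hadha was 4294 ± 527 in Vil-Cre and 4163 ± 410.4 in Vil-Cre:NDI1 mice (SD, n = 5), and Hadhb 2097 ± 160.4 and 2257 ± 177. Hadha was highest in Vil-Cre 4 and Hadhb in Vil-Cre:NDI1 5, and Vil-Cre:NDI1 3 was the next highest for both, at 4848 and 2417. For Hadhb, 52.8% of the 100-base windows also occur in the pseudogenes Gm13910 and Gm9108. Echs1, the short-chain hydratase, ranged from 916 to 1156 and from 1051 to 1322.

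Hadh, the short-chain 3-hydroxyacyl-CoA dehydrogenase that makes NADH, had normalized counts of 7079, 6385, 9571, 9255 and 4707 in Vil-Cre and 8525, 8363, 8071, 5705 and 8147 in Vil-Cre:NDI1 mice. Vil-Cre 5 and Vil-Cre:NDI1 4 were low, and Vil-Cre 3 and Vil-Cre 4 were high. Acaa2, the mitochondrial thiolase, was also lowest in Vil-Cre 5 and Vil-Cre:NDI1 4 and highest in Vil-Cre 3, with 2253, 2211, 3713, 3104 and 1401 in Vil-Cre and 3644, 2757, 3156, 1732 and 2150.4 in Vil-Cre:NDI1 mice. The log2 fold changes were 0.10 ± 0.19 for Hadh and 0.11 ± 0.26 for Acaa2 (SE), less than the spread between mice. Without Vil-Cre 5 both estimates fell below 0, to -0.05 and -0.08.

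The auxiliary enzymes for unsaturated chains were close between genotypes. Eci1, an enoyl-CoA isomerase, was 619 ± 63.9 and 653 ± 68.1 (SD, n = 5), and Decr1, the dienoyl-CoA reductase, 1152 ± 175 and 1199 ± 109.8. Eci2, the second isomerase, ranged between 764 and 1012 in Vil-Cre and between 757 and 1077 in Vil-Cre:NDI1 mice. Their log2 fold changes were 0.08, 0.07 and 0.06.

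**Figure D2:**
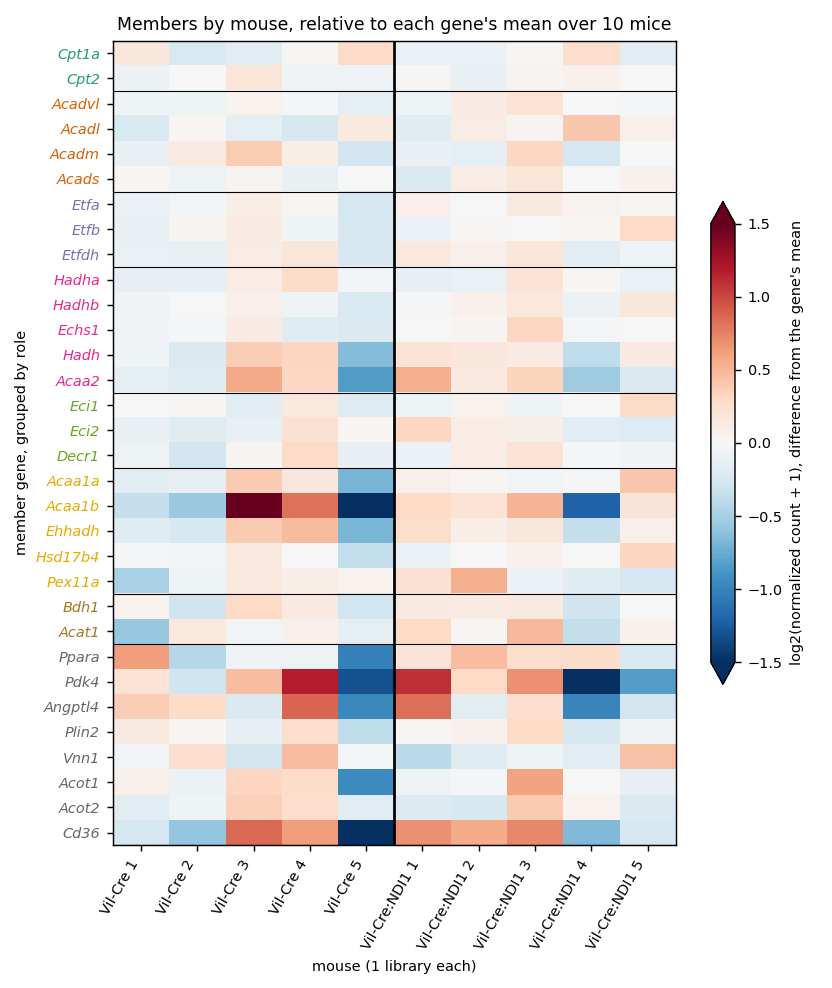
Each cell is a gene's log2(normalized count + 1) in 1 mouse minus its mean over 10 mice (red higher, blue lower, colours end at 1.5), with genes in rows by role and mice in columns, Vil-Cre left of the black line. Vil-Cre 5 is blue for most genes, and Acaa1b, Pdk4, Angptl4 and Cd36 carry the strongest colours in both genotypes.

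Peroxisomal oxidation held the gene with the widest spread. Acaa1b, a peroxisomal thiolase on chr9:119148023-119157093, had normalized counts of 177, 153, 729, 399 and 74.8 in Vil-Cre and 277, 261, 321, 97.0 and 259 in Vil-Cre:NDI1 mice. The highest mouse was 9.75 times the lowest, both of them Vil-Cre. The means were 307 ± 265 and 243 ± 85.6 (SD, n = 5), and the fold change of 1.00 had a 95% interval from 0.44 to 2.29. Its paralog Acaa1a, on the same chromosome at 119339676 to 119350299, was 3407, 3442, 4964, 4255 and 2338 in Vil-Cre and 4012, 3873, 3680.4, 3704 and 5018 in Vil-Cre:NDI1 mice, a narrower range of 2.15-fold. The pair shares 360 windows of 100 bases, 22.6% of those of Acaa1b, so part of the reads of the less abundant Acaa1b may come from Acaa1a.

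Ehhadh, the peroxisomal bifunctional enzyme and a well-known PPAR alpha target, was 1047, 1006, 1558, 1653 and 741 in Vil-Cre and 1427, 1274, 1337, 932 and 1255 in Vil-Cre:NDI1 mice. As with Acaa1b, Vil-Cre 3 and 4 were high and Vil-Cre 5 and Vil-Cre:NDI1 4 low. Hsd17b4, the other bifunctional enzyme, which also handles branched chains, was 3271 ± 406 and 3519 ± 405 (SD, n = 5). Pex11a, which promotes peroxisome division, ranged from 457 to 708 and from 535 to 923. The log2 fold changes of Acaa1a, Ehhadh, Hsd17b4 and Pex11a were 0.18, 0.10, 0.11 and 0.09, and all 4 intervals lay within 1.5-fold.

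Of the ketone body enzymes, Bdh1, which interconverts acetoacetate and 3-hydroxybutyrate with NADH, was 1219, 961, 1456, 1296 and 970.2 in Vil-Cre and 1299, 1290.1, 1297, 957 and 1177 in Vil-Cre:NDI1 mice. The log2 fold change was 0.04 (95% interval -0.26 to 0.33). Acat1, the mitochondrial acetoacetyl-CoA thiolase, was 1015, 1677, 1468, 1586 and 1356 in Vil-Cre and 1856, 1532, 2107, 1178 and 1572 in Vil-Cre:NDI1 animals. Its log2 fold change of 0.21 ± 0.17 (SE) had a two-sided exact permutation p of 0.310, and the groups overlapped.

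Ppara itself, on chr15:85734983-85802819, was 582, 280.2, 356, 358 and 186 in Vil-Cre and 432, 517, 453, 455 and 322 in Vil-Cre:NDI1 mice. A single Vil-Cre mouse was above all others and a single Vil-Cre mouse below all others. The log2 fold change was 0.39 ± 0.25 (SE, 95% interval -0.17 to 0.94), with a two-sided exact permutation p of 0.230. Vil-Cre 5, with the lowest Ppara, was also the lowest mouse for Cd36, Acaa1b, Ehhadh and Acot1. Vil-Cre 1, with the highest Ppara, had a Cd36 count of 853, and Vil-Cre:NDI1 4, with the lowest Pdk4, had a Ppara count of 455.

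Pdk4, the kinase that shuts off pyruvate dehydrogenase in fasting, had normalized counts of 1681, 1173, 1986, 3275 and 582 in Vil-Cre and 3098, 1781, 2315, 510.2 and 812 in Vil-Cre:NDI1 mice. The highest was 6.42 times the lowest, and each genotype had both high and low mice. Means of 1739 ± 1010.3 and 1703 ± 1066 (SD, n = 5) were far closer than the mice of 1 genotype. Angptl4, a secreted inhibitor of lipoprotein lipase, was 2888, 2695, 1923, 4098 and 1141 in Vil-Cre and 3965, 1998, 2664, 1123 and 1836 in Vil-Cre:NDI1 mice. Vil-Cre 4 and Vil-Cre:NDI1 1 were highest and Vil-Cre 5 and Vil-Cre:NDI1 4 lowest for both genes.

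Cd36, a fatty acid translocase of the enterocyte brush border and of fat and endothelial cells, lies on chr5:17781690-17888801. It was 853, 684, 1836, 1578 and 318 in Vil-Cre and 1639, 1508, 1682, 644 and 858 in Vil-Cre:NDI1 mice. The 10 mice fell on either side of a gap between 858 and 1508, with 2 Vil-Cre and 3 Vil-Cre:NDI1 mice above it. The fold change was 1.34 (95% interval 0.67 to 2.65), the largest estimate of the 32 genes, with a two-sided exact permutation p of 0.532.

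Plin2, the coat protein of lipid droplets, was 627 ± 105 and 639 ± 87.3 (SD, n = 5). Vnn1, a pantetheinase, was 2315 ± 469.9 and 2098 ± 494, and its log2 fold change of -0.15 (95% interval -0.52 to 0.22) was the lowest of the 32. Acot1 and Acot2, a cytosolic and a mitochondrial acyl-CoA thioesterase, were the scarcest, at 185 ± 55.2 and 199.5 ± 46.9 for Acot1 and 137 ± 24.8 and 129.6 ± 26.7 for Acot2. Reads of these neighbouring paralogs cannot be fully separated, since 21.9% of the windows of Acot1 and 17.1% of those of Acot2 recur in other Acot genes.

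**Figure D3:**
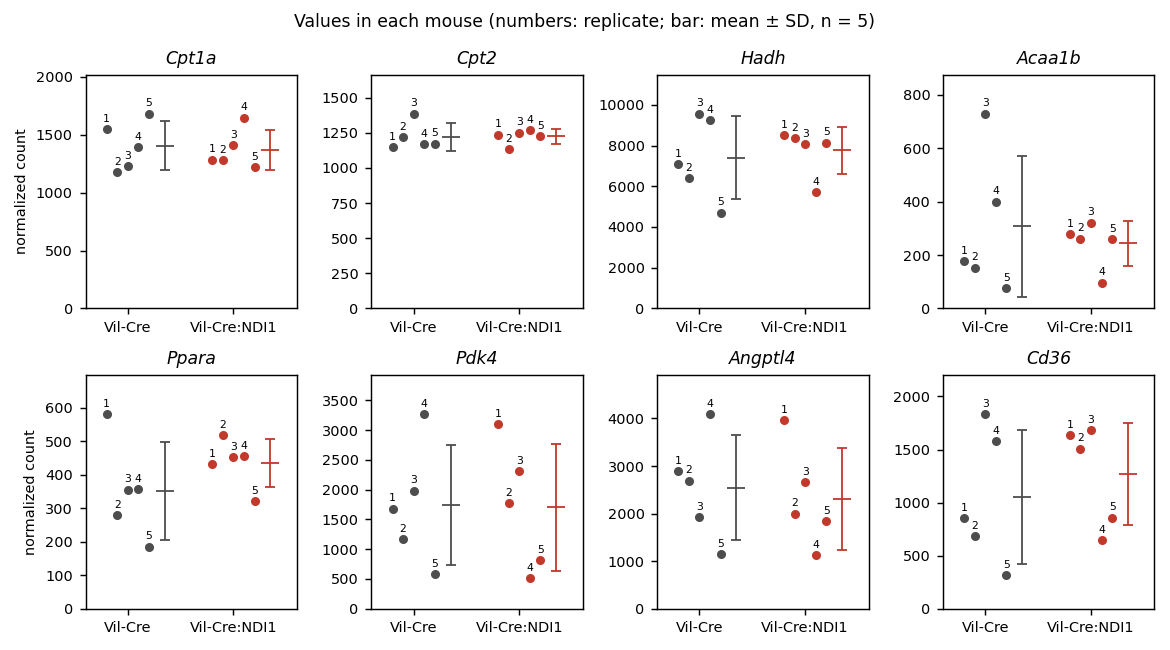
Normalized counts (y axis, from 0) of 8 genes in each mouse, numbered by replicate, with the mean and SD of 5 mice beside each genotype. Cpt1a and Cpt2 are even, whereas Pdk4, Angptl4, Cd36 and Acaa1b range over 3.65- to 9.75-fold, with mouse 5 low in Vil-Cre and mouse 4 low in Vil-Cre:NDI1.

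The spread between mice of the same genotype therefore differed widely among the 32 genes. The pooled SD of log2(normalized count + 1) within genotype was 0.09 for Cpt2 and 0.10 for Acadvl and Etfa, and 0.68 for Angptl4, 0.84 for Cd36, 1.01 for Pdk4 and 1.02 for Acaa1b. The median was 0.23 over the 32 genes and 0.29 over all genes tested. Cpt2 was in the lowest 2.89% of all genes by this measure, and Pdk4 and Acaa1b were above 95.2% and 95.3% of them. By role, the median SD was 0.14 for the carnitine shuttle and for the electron transfer flavoprotein, 0.15 for the acyl-CoA dehydrogenases, 0.32 for peroxisomal oxidation and 0.44 for PPAR alpha, its targets and lipid handling. The highest mouse was over 2 times the lowest in 12 of the 32 genes, against 46.4% of all genes.

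Single mice carried much of this. Vil-Cre 5 was the lowest of the 10 mice for 18 of the 32 genes and below the mean for 28, with a median log2 deviation of -0.24 over the 32 genes and of 0.01 over all genes. Vil-Cre:NDI1 3 was the highest for 9 and Vil-Cre 3 for 7. The count of genes over 2-fold was 8 without Vil-Cre 5, beside 43.1% of all genes, and 7 without Vil-Cre 5 and Vil-Cre:NDI1 4, beside 40.2%. This pair has the highest Fabp6 and was left out together after the values were seen. Of the mice kept, Vil-Cre 2 and Vil-Cre:NDI1 5 had Fabp6 counts of 325 and 201. Onecut2, a transcription factor of the proximal small intestine, was 62.6, 41.6, 744, 407 and 33.0 in Vil-Cre and 580.3, 341, 429.9, 20.6 and 81.0 in Vil-Cre:NDI1 mice, so the 5 mice with Cd36 of 1508 or more were also the 5 with the highest Onecut2, all with Fabp6 of at most 5.01. The part of the position of the sample along the gut in these differences was not tested.

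Levels were compared per kilobase of the longest coding transcript. Hadh was highest, with a median of 4533 normalized counts per kilobase over 10 mice (lowest 2631, highest 5350), more than 98.6% of genes tested. Acaa1a at 2150.0, Acaa2 at 1652, Etfb at 1532 and Etfa at 1511 followed. Acaa2, Etfb and Etfa did not keep their order in all mice, with Acaa2 above Etfb in 6 of 10 and Etfb above Etfa in 7 of 10. Hsd17b4, Acadvl, Hadhb, Hadha and Acadm lay between 927 and 1249.7.

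Lower in the order, Cpt1a had 310.2 and Cpt2 515 normalized counts per kilobase, above 82.1% and 88.7% of genes. Pdk4 was at 497 with a range from 146 to 940.0, and Cd36 at 348 with a range from 93.4 to 540.3. The last 4 were Acaa1b at 154, Ppara at 116, Acot1 at 81.0 and Acot2 at 55.2. Every gene's range overlapped that of the next in the order, and the higher gene led in all 10 mice in 3 of the 31 neighbouring pairs, Hadh over Acaa1a, Acadvl over Hadhb and Ppara over Acot1. With the length of all exons in place of the longest transcript, Acaa2 came first and Hadh second, and Echs1 moved from 13 to 29 in the order.

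**Figure D4:**
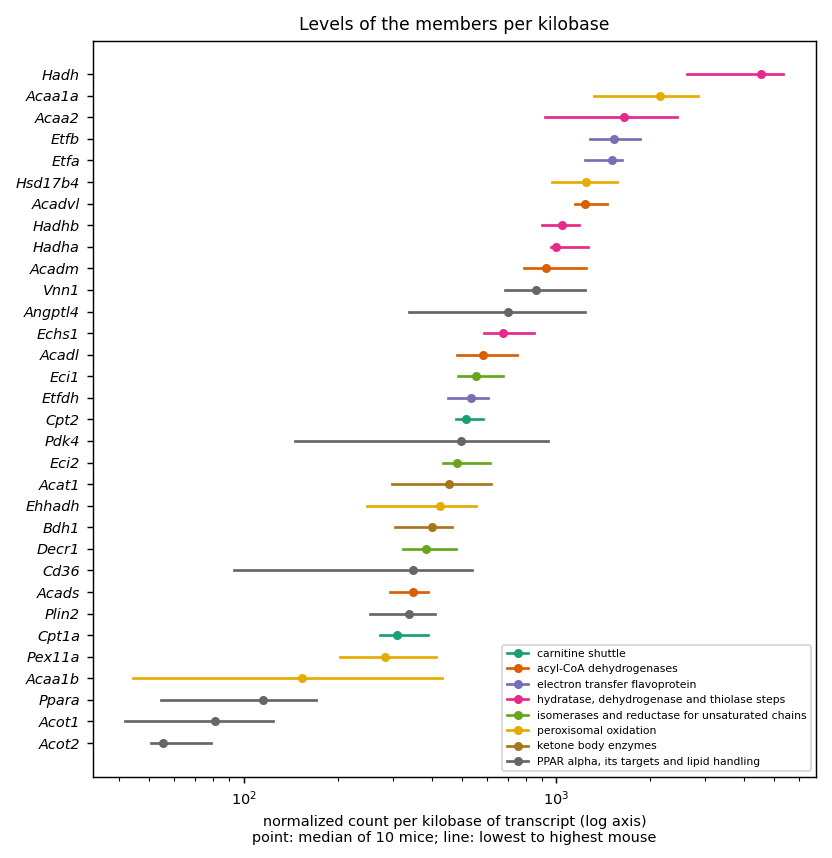
Normalized count per kilobase of the longest coding transcript (x axis, log scale), with the median of 10 mice as a point and the lowest to highest mouse as a line; genes are in rows in order of level and coloured by role. Hadh is at the top and Acot2 at the bottom, and Acaa1b, Pdk4, Cd36 and Angptl4 have long lines.

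Fat cells also make Cd36, Pdk4, Angptl4 and Plin2, so their values were set beside the fat cell markers. The mean log2 level of the 9 adipocyte markers fell into separate clusters of mice, with Vil-Cre:NDI1 1 at 2.75, Vil-Cre 4 at 3.25 and Vil-Cre 5 at 4.42, and the other 7 from 5.77 to 6.81, so no correlation is given. Adipoq, the fat cell hormone adiponectin, was 0 in Vil-Cre:NDI1 1, 1.01 in Vil-Cre 4 and 7.77 in Vil-Cre 5, and 48.3 to 164 in the others. Retn, Plin1 and Lep were also at 0 in Vil-Cre:NDI1 1, and Retn and Lep in Vil-Cre 4 and 5. In Vil-Cre:NDI1 1 Pdk4 was 3098, Angptl4 3965 and Cd36 1639, and in Vil-Cre 4 they were 3275, 4098 and 1578, all in the upper part of their ranges. In Vil-Cre 5 they were 582, 1141 and 318. Plin2 was 635 in Vil-Cre:NDI1 1, 752 in Vil-Cre 4 and 480 in Vil-Cre 5, and 533 to 772 in the other 7.

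The enterocyte markers were related to the members over all 10 mice. The enterocyte score, the mean log2 level of 12 absorptive-cell genes such as Lct, Apoa4 and Rbp2, was 15.16, 15.16, 15.38, 15.30 and 14.61 in Vil-Cre and 15.36, 15.37, 15.30, 15.13 and 15.57 in Vil-Cre:NDI1 mice. Vil-Cre 5 stood alone at the low end. Acaa1a rose with the score (Pearson's r = 0.94, permutation p = 0.0002, 0.0435 after adjustment over all genes tested, and Spearman's rho = 0.82, permutation p = 0.00605, 0.194 after adjustment, n = 10 mice). Without the 2 mice farthest from the median of the score, Vil-Cre 5 and Vil-Cre:NDI1 5, r was 0.72 (permutation p = 0.0377, n = 8). No member then passed the adjusted threshold, beside 0.147% of all genes, so the call for Acaa1a rests on those mice.

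Acaa1a was the single gene of the 32 past the threshold by Pearson's r, against 0.727% of all genes, and by Spearman's rho it was 0 of 32, against 0.126%. Of the 32, 30 had a positive r, with a median of 0.53, beside 49.0% positive and a median of -0.01 over all genes. Hsd17b4 at 0.88, Hadh at 0.86, Hadhb at 0.85, Etfa at 0.82, Ehhadh at 0.80 and Cd36 at 0.78 had the next highest r. Without the 2 farthest mice, r was 0.95 for Cd36, 0.91 for Hadh, 0.86 for Ehhadh, 0.57 for Etfa and Hadhb and 0.31 for Hsd17b4. Cpt1a had r = -0.72, and -0.53 without those mice, and Acadl -0.28. Centred on each genotype, the median r was 0.57, and without the pair of mice with the highest Fabp6 it was 0.23. The 4 mice with the lowest score, Vil-Cre 5, Vil-Cre:NDI1 4, Vil-Cre 2 and Vil-Cre 1, had Fabp6 counts of 1477, 772, 325 and 36.4, and Vil-Cre:NDI1 5, with the highest score, had 201. The part of absorptive cell content and of position along the gut in the relation was not tested.

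**Figure D5:**
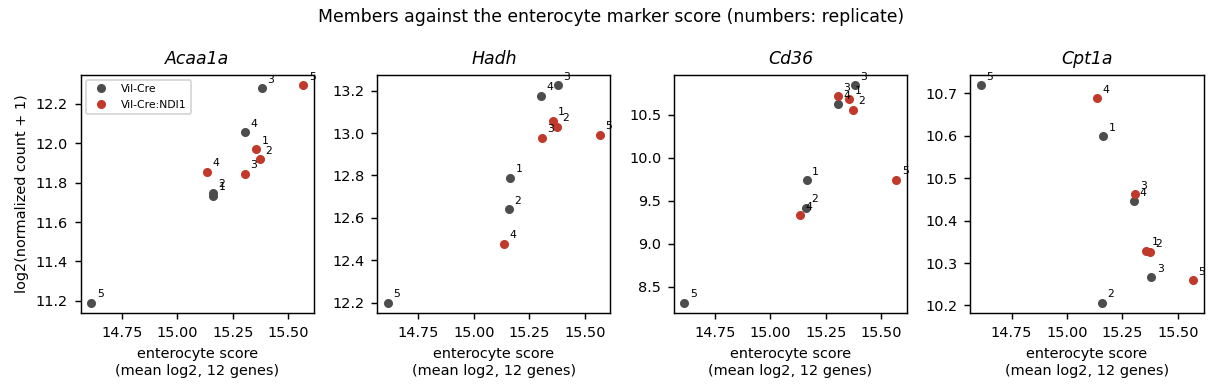
Log2(normalized count + 1) of 4 genes (y axes) against the mean log2 level of 12 enterocyte markers (x axis) in 10 mice, numbered by replicate and coloured by genotype. Acaa1a, Hadh and Cd36 are lowest in Vil-Cre 5 at a score of 14.61, and Cpt1a is highest there.

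The wider pathway was tested from a list of 108 further genes, of which 98 passed the filter on low values. Of these, 0 were called higher and 0 lower at an adjusted p under 0.05, and 7 (7.14%) had an unadjusted p under 0.05, beside 4.24% of all genes. The estimate was above 0 for 15 of 19 other mitochondrial oxidation and carnitine genes, 22 of 33 other peroxisomal genes, 5 of 8 other ketone body genes, 11 of 20 other PPAR targets and 12 of 18 receptors and coregulators. That is 65 of the 98, with a median log2 fold change of 0.06, beside 51.2% of all genes. Without Vil-Cre 5 it was 52 of the 98, and with equal totals 48 of the 98, beside 36.2% of all genes. DESeq2 called 0 of 101 on all 10 libraries and 6 of 99 without Vil-Cre 3 and Vil-Cre 4, all 6 higher in Vil-Cre:NDI1 and among them Acox2, Creb3l3, Fabp1 and Lpin3, beside 1.77% of all genes. On the same 8 libraries edgeR called 0 of 98.

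Acox2, the peroxisomal oxidase of bile acid side chains and branched chains, had the largest positive estimate. It was 135, 91.9, 393, 213 and 80.6 in Vil-Cre and 455, 345, 346, 271 and 258 in Vil-Cre:NDI1 mice. The log2 fold change was 1.095 ± 0.38 (SE), with a two-sided exact permutation p of 0.0476 before adjustment and an adjusted p from limma of 0.998, and the groups overlapped. Fabp1, the liver-type fatty acid binding protein, was next at 0.61 ± 0.42, with 3735 to 17987 in Vil-Cre and 6735 to 17919 in Vil-Cre:NDI1 mice. Aacs, acetoacetyl-CoA synthetase, had the lowest estimate at -0.76 ± 0.97, with counts from 112 to 1934 and from 124 to 2971. Acsm3, a medium-chain acyl-CoA synthetase, followed at -0.39 ± 0.81.

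Among the 7 genes with an unadjusted p under 0.05 from limma were also Acsl5, Creb3l3 and Lpin3, which are named here after their values were seen. Acsl5, a long-chain acyl-CoA synthetase, was 17024, 18474, 17515, 16130 and 14594 in Vil-Cre and 18685, 19681, 18702, 20944 and 25530 in Vil-Cre:NDI1 mice. It was the single gene of the 98 whose groups did not overlap, against 0.699% of all genes, with a log2 fold change of 0.30 ± 0.11 (SE) and a two-sided exact permutation p of 0.00794, the smallest the design allows. Creb3l3, a transcription factor that works with PPAR alpha in fasting, had a log2 fold change of 0.35 ± 0.10 (SE) and an exact permutation p of 0.0238. Lpin3, a phosphatidate phosphatase, was at 0.34 ± 0.10 with an exact permutation p of 0.0159. For all 3 the adjusted p from limma was 0.998.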

How the data were processed

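Per the study's methods, the authors trimmed single-end reads (trimGalore!), ran STAR against GRCm38 plus the NDI1 sequence, and counted per gene with Salmon within nf-core/rnaseq. What they deposited is a signal, normalized counts, from 1 library per mouse. DESeq2 is named for their tests, and the scaling is not given in the sources used here, but the factors seen in the values lie within 0.834% of the median-ratio size factors of the recovered reads. The annotation release and the strand of counting are not given in the sources used here. All non-zero values (100%) of each library are whole multiples of its smallest value within 0.01 read, so reads were recovered by division. Replicate libraries differed by more than sampling noise.

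The genotype test was limma 3.58.1 (R 4.3.3) with a variance trend, fitted to log2(value + 1) of every gene that reached 10 in 5 or more mice, with Benjamini-Hochberg adjustment over all of them and a threshold of 0.05. Fold changes on this scale understate those of low genes. Single genes were also compared by exact permutation. Relations to markers used 100000 permutations adjusted over all genes tested, in place of the list-only adjustment first planned. Recovered reads were tested with DESeq2 1.42.0 and edgeR 4.0.16. The script was tested on simulated data. Lengths and overlaps came from GENCODE M21 (GRCm38) and start-site windows from RefSeq. All 32 members are named, the further pathway genes by counts and by the 2 largest estimates in each direction, and markers by list. The members and lists were chosen with earlier results of these data known. Libraries from other tissues or metformin-treated mice were not analysed here.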

Additional observations from a re-analysis of the deposited data

Results flagged for a closer look

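Among 64 sets of 5 mice (32 genes in 2 genotypes), 6 had 1 mouse far from the other 4 by Dixon's criterion, all in Vil-Cre:NDI1, and chance flags about 1 in 20 such sets, or 3.2 here. Hadh was 5705 in Vil-Cre:NDI1 4 and 8071 to 8525 in the other 4 mice. Acaa1b was 97.0 in the same mouse and 259 to 321 in the others. Vil-Cre:NDI1 5 was high for Acaa1a, at 5018 against 3680.4 to 4012, and for Etfb, at 1664 against 1281 to 1388. Vil-Cre:NDI1 3 was high for Echs1, at 1322 against 1051 to 1092, and for Acot1, at 283 against 170.2 to 186. Vil-Cre:NDI1 4 also had a Fabp6 count of 772, and the part of tissue position in its low values was not tested.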

How the results depend on the processing

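No gene of the 32 was called under any of the 22 alternatives, with a smallest adjusted p of 0.176 for DESeq2 on the 8 libraries without Vil-Cre 3 and 4. With those 2 mice left out, 30 of 32 estimates were above 0 by DESeq2 and by edgeR, beside 50.6% and 48.0% of all genes. Both mice left out are Vil-Cre, and Vil-Cre 3 was the highest mouse for 7 of the 32 genes and Vil-Cre 4 for 6. The part of these high values in the signs was not tested. In the same fits 7 of 32 had an unadjusted p under 0.05 by DESeq2 and 3 by edgeR, beside 12% and 8.74% of all genes. The number with an interval within 1.5-fold was 20 to 25 with 1 mouse left out, and the median log2 fold change 0.03 to 0.13. The sign of the estimate held in 653 of 704 refits and in all of them for 15 genes, and the cause of the other signs was not tested. With equal totals the log2 fold change was -0.055 for Cpt2, -0.0088 for Acads, -0.0041 for Eci2, -0.025 for Bdh1 and -0.028 for Plin2. With edgeR it was -0.0062 for Cpt2. Without the pair of mice with the highest Fabp6 it was -0.020 for Cpt2 and -0.054 for Acot1. On 8 libraries it was, with DESeq2 and edgeR, 0.059 and 0.041 for Acadm, 0.079 and 0.062 for Hadha, 0.85 and 0.84 for Acaa1b, 0.57 and 0.56 for Pdk4, 0.048 and 0.034 for Angptl4, and 0.12 and 0.098 for Acot2. With 1 mouse left out, estimates crossed 0 for Cpt1a (-0.10 to 0.034), Cpt2 (-0.013 to 0.055), Acadm (-0.16 to 0.011), Hadha (-0.098 to 0.022), Hadh (-0.050 to 0.21), Acaa2 (-0.084 to 0.27), Eci2 (-0.013 to 0.12), Acaa1b (-0.40 to 0.42), Ehhadh (-0.058 to 0.23), Pex11a (-0.026 to 0.17), Bdh1 (-0.031 to 0.12), Pdk4 (-0.44 to 0.26), Angptl4 (-0.40 to 0.093), Plin2 (-0.058 to 0.10) and Acot1 (-0.073 to 0.25). Replicate numbers only name the mice (same-numbered mice deviated with correlations of -0.12 to 0.14), and with them as a block 0 of 32 genes were called and 22 had an interval within 1.5-fold. The number of genes over 2-fold between mice was 8 to 12 with 1 mouse left out, beside 43.1% to 45.5% of all genes. It was 7 without the pair of mice with the highest Fabp6, beside 40.2%. The number related to the enterocyte score was 2 of 32 when centred on each genotype, beside 1.94% of all genes. It was 0 by Spearman's rho, without the 2 farthest mice and without the high Fabp6 pair, beside 0.126%, 0.147% and 0% of all genes. The median level per kilobase over the 32 genes was 525 with the longest transcript and 371 with all exons. The choices that leave out 2 mice, for Fabp6 or (Vil-Cre 3 and 4) because 1 read is worth close to 1 in them, were made after the values were seen. With 5 mice per genotype, changes under 1.5-fold were often not detectable. Larger changes could also go uncalled after adjustment over all genes tested, as Acox2 did at a log2 fold change of 1.095. For Acaa1b, Pdk4 and Cd36 the intervals reached beyond 2-fold, so a change of that size was not detectable there. The counts cannot tell apart cell content and RNA per cell.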
